A study of Mus musculus with 6 samples.

Results

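This is an account of 60 mouse genes that encode the classical axon guidance ligands and receptors and the Eph signalling proteins, in heads of wild-type embryos and of embryos that lacked Sf3b4 in neural crest cells. The genes were taken by symbol from the protein-coding genes of the annotation: semaphorins, plexins, neuropilins, ephrins, Eph receptors, Slits, Robos, netrins and Unc5 receptors, each with at least 60 reads summed over all pools. The rule was met by 60 of the 54532 genes in the deposited files, and all 60 were among the 14008 genes with enough reads to be tested. Another 8 genes with such symbols had fewer reads. Epha4 was left out by the rule and is not reported here. One of the 60, Unc50, shares only the first letters of its symbol with the Unc5 receptors; it encodes a Golgi membrane protein and is kept in the counts.

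Heads were collected on embryonic day 8.5, and each of the 6 libraries came from a pool of 3 heads. The 3 control pools were Sf3b4 wild type. In the 3 mutant pools Sf3b4, which encodes a subunit of the SF3B splicing complex, was deleted in neural crest cells, and the heads were taken before any malformation could be seen. Titles of the mutant samples call the embryos homozygous null, while their genotype entries name a neural crest mutant; neither the Cre line nor whether pools shared litters is stated in the labels used here. Whole heads were sequenced, so fewer cells of a type and less RNA per cell cannot be told apart in any value below.

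Guidance molecules steer growing axons and migrating cells by attraction and repulsion. Semaphorins signal through plexins, the secreted class 3 semaphorins mostly with a neuropilin as the binding partner. Ephrins bind Eph receptor tyrosine kinases on neighbouring cells and can signal in both directions. Slits repel cells through Robo receptors, and netrins attract through Dcc and repel through Unc5 receptors. Cranial neural crest cells use several of these systems to keep their migratory streams apart, and blood vessels and the neural tube use them as well.

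Total counts ran from 6930827 to 12251910 per pool, and the 60 genes took 0.27% to 0.31% of them. Sf3b4 itself was at 71.4 ± 6.97 CPM (counts per 1000000 reads, SD, n = 3) in wild-type pools and 60.4 ± 4.09 CPM in mutant pools, a log2 fold change of -0.24 that did not pass (edgeR adjusted p = 0.128). Of 10 markers of migrating neural crest 4 were lower in mutants (Sox10, Tfap2b, Ngfr and Erbb3), and the markers summed to 419.4 to 456.5 CPM in wild-type pools and 312.1 to 353.5 CPM in mutant pools. All 14 p53 target genes on a list used as a reference were higher. Over all genes tested, 2.65% were higher and 3.88% lower. The p53 and marker lists were chosen with earlier results of these data known, so their counts are not independent results. Wild-type pool 1 and mutant pool 3 held 1 Y-linked read each, and the other 4 pools held 344 to 664.

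The levels of the guidance genes in the heads spanned more than 2 orders of magnitude. Per kilobase of exon, and averaged over both genotypes, levels ran from 0.127 CPM for Epha3 to 29.5 CPM for Efnb2, with a median of 3.34 CPM. Above 10 CPM per kilobase lay 16 genes, 35 lay between 1 and 10, and 9 lay under 1. The leading genes were Efnb2, an ephrin that marks arteries, and Plxna1 (26.4 CPM per kilobase), a semaphorin receptor. Ephb4, the receptor through which Efnb2 acts in vessels, followed at 25.2 and Plxnb2 at 24.6 CPM per kilobase. Neighbours in this order lay close together. In wild-type pools alone Efnb2 was at 29.3 ± 2.78, Plxna1 at 27.7 ± 2.51 and Plxnb2 at 25.5 ± 2.91 CPM per kilobase (SD, n = 3), so the first places do not differ beyond their spread.

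**Figure D1:**
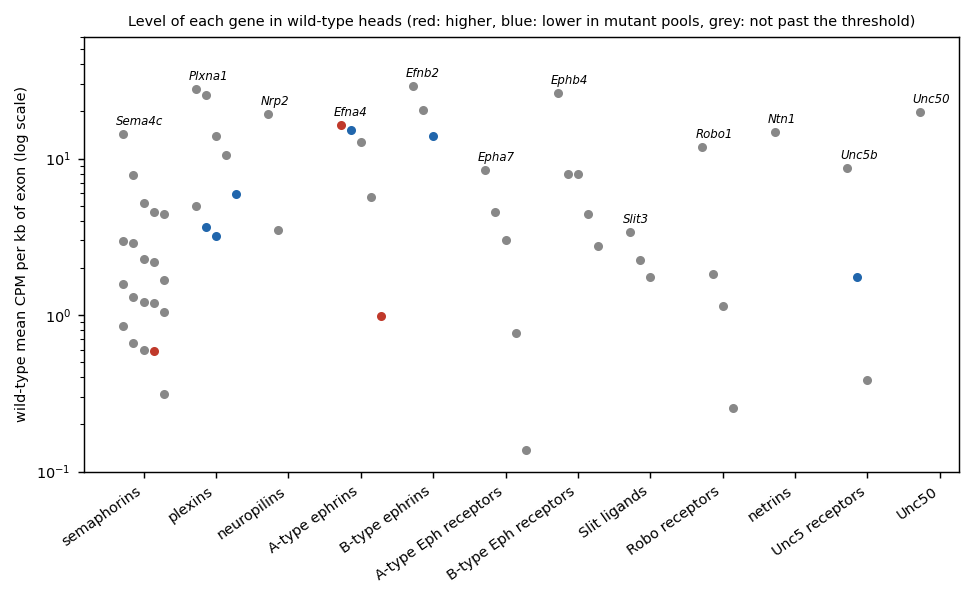
Mean level of each of the 60 genes in the 3 wild-type pools, in CPM per kilobase of exon on a log axis, by family; points are spread sideways only to separate them. Red and blue mark genes higher and lower in mutant pools, which sit at all levels, from Sema3e and Efna3 under 1 to Efna4, Efna2 and Efnb3 above 10.

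Each family had its own leading gene. Among semaphorins it was Sema4c (13.6 CPM per kilobase), a membrane-bound ligand of Plxnb2, and among neuropilins Nrp2 (18.7), the partner that binds Sema3f. Efna4 led the A-type ephrins (19.7), Epha7 the A-type Eph receptors on the list (8.37) and Ephb4 the B-type. Robo1 (11.3), Slit3 (3.18), Ntn1 (14.9) and Unc5b (9.41 CPM per kilobase) led the remaining families. Just inside the threshold of 60 reads were Robo4 with 66 reads, Epha3 with 67 and Sema4a with 81; just outside were Ntn4 with 44, Epha10 with 41 and Unc5d with 33.

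Between the genotypes, 9 of the 60 genes differed. Higher in mutant pools were 3 genes, the ephrins Efna3 and Efna4 and the semaphorin Sema3e. Lower were 6, the plexins Plxna4, Plxna3 and Plxnc1, the ephrins Efna2 and Efnb3 and the netrin receptor Unc5c. These are 5% and 10% of the list, where 2.65% of all genes tested were higher and 3.88% lower. The other 51 genes did not pass, and 41 of the 60 had a log2 fold change within 0.25 of zero. The count of lower genes fell to 1 without wild-type pool 2, mutant pool 1 or mutant pool 3 and to 2 without mutant pool 2, and that of higher genes to 1 without wild-type pool 2 or mutant pool 2. Calls over all genes tested fell in the same fits. Lower calls went from 543 to 183, 123, 227 and 236, in the order named. Higher calls went from 371 to 184 without wild-type pool 2 and to 156 without mutant pool 2. In 20 genes (33.3%) the mutant pools lay all above (5) or all below (15) the wild-type pools, against 28.3% of all genes tested.

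**Figure D2:**
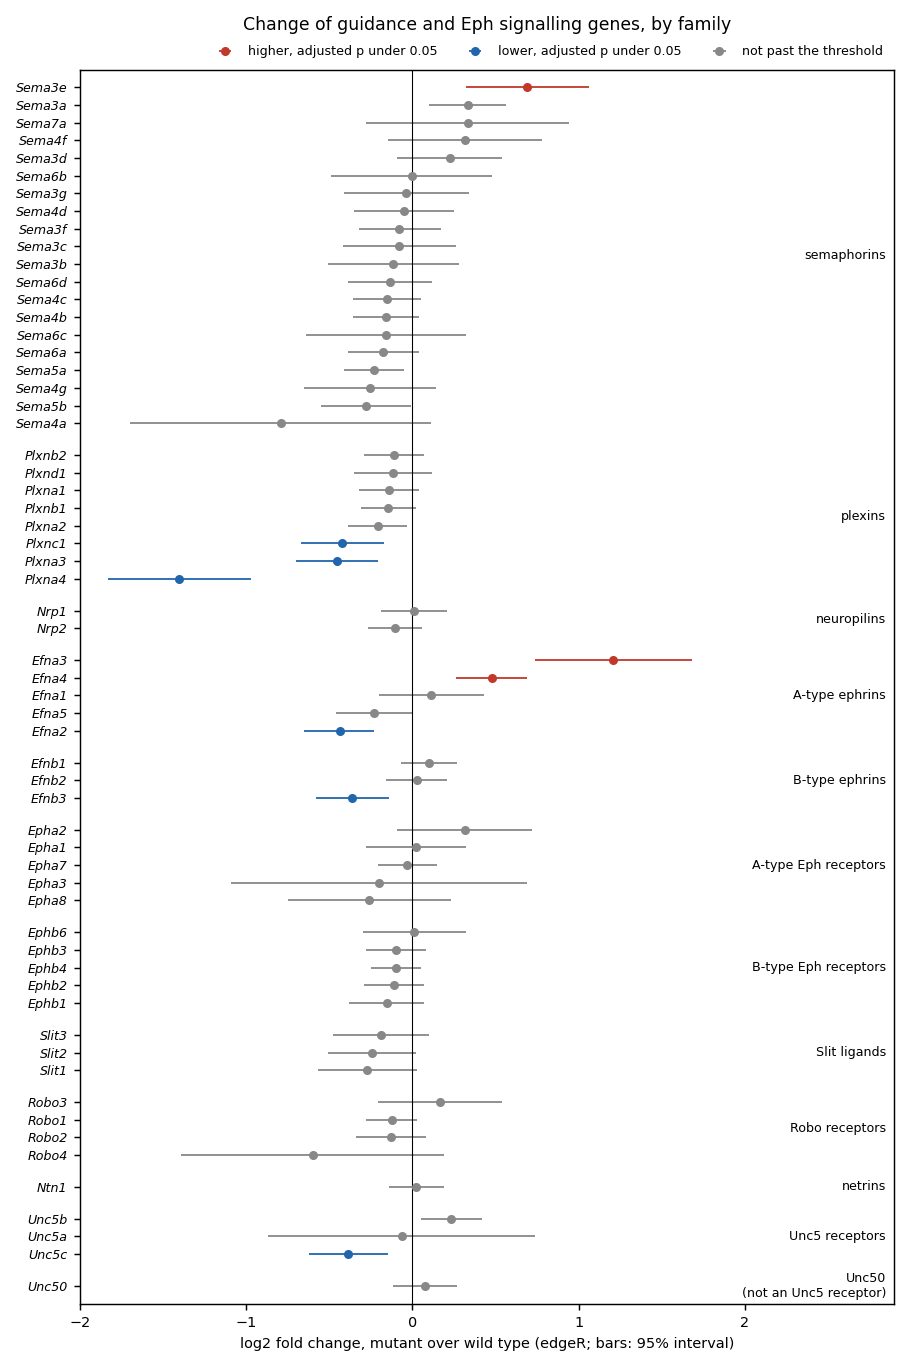
Log2 fold change of each gene, mutant over wild type, with its 95% interval from the edgeR fit, grouped by family. Plxna4 at -1.40 and Efna3 at 1.21 stand farthest from zero among the genes that passed, and all 8 plexins lie left of zero.

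Most log2 fold changes of the list were small and negative: 42 of 60 lay below zero, with a median of -0.11, while the median of all genes was 0.002. Guidance genes are long, with a median exon length of 6744.5 bases against 4354.5 for all genes tested, and 24 of the 60 belong to the longest of 5 equal length classes, in which the median log2 fold change of all genes was -0.10. When the trend of each pool over exon length and GC content was removed, 28 of the 60 were negative and the median was 0.004. The 3 genes that were higher passed again under this correction, joined by Sema3a and Unc5b. Over all genes tested the correction took higher calls from 371 to 647 and lower calls from 543 to 536. Of the 6 lower genes Plxna4, Plxna3, Efna2 and Efnb3 passed, while Plxnc1 (log2 fold change -0.35, adjusted p = 0.0575) and Unc5c (-0.20, adjusted p = 0.218) did not.

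**Figure D3:**
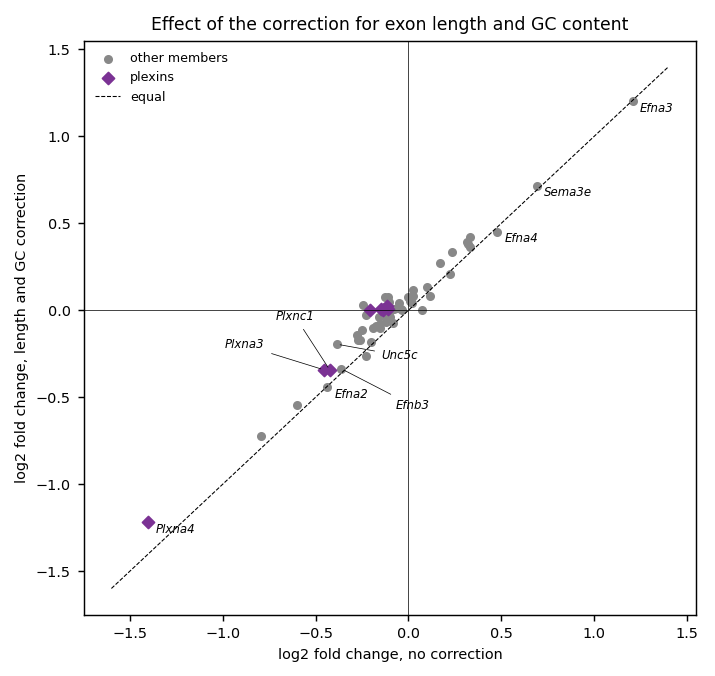
Log2 fold change of the 60 genes without (horizontal) and with (vertical) the correction for exon length and GC content; plexins are diamonds, and the dashed line marks equal values. Small negative values move up to zero, among them 5 of the 8 plexins, while Plxna4, Efna2, Efna3, Efna4 and Sema3e stay near the line.

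Plxna4 showed the largest difference of the list. It encodes plexin A4, a receptor that conveys class 3 semaphorin signals with a neuropilin and class 6 signals without one, and lies on chromosome 6 (GRCm38, 32144268 to 32588192, minus strand). Its level was 38.92, 58.49 and 38.32 CPM in wild-type pools 1, 2 and 3, and 13.79, 19.68 and 17.74 CPM in mutant pools 1, 2 and 3. The lowest wild-type pool was thus well above the highest mutant pool. The mean of 45.2 ± 11.5 CPM was 2.64-fold that of the mutants (17.1 ± 3.00 CPM, SD, n = 3), with -1.40 (SE 0.191) as the log2 fold change and 0.00337 as its adjusted p. The call held whichever pool was left out, with log2 fold changes from -1.52 to -1.18. In the 4 pools with Y-linked reads alone the log2 fold change was -1.53 with an adjusted p of 0.0566.

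Plxna3 and Plxnc1 were lower by less. Plxna3, which encodes the receptor through which Sema3f acts together with Nrp2, lies on the X chromosome (74329066 to 74344689). Wild-type pools gave 46.7, 55.38 and 38.5 CPM, mutant pools 33.08, 33.67 and 35.21 CPM. The mutant pools were alike, whereas the wild-type pools spread widely, with pool 3 close to the mutants. The log2 fold change was -0.45 (SE 0.116, adjusted p = 0.0311). Among the fits that leave out 1 pool it passed only without wild-type pool 3, with adjusted p from 0.00302 to 0.141, and it did not pass with limma-voom or in the pools with Y-linked reads alone (adjusted p = 0.132).

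Plxnc1 encodes the receptor of Sema7a and lies on chromosome 10 (94790866 to 94944835, minus strand). Its level was 27.62, 34.61 and 28.59 CPM in wild-type pools and 20.19, 21.99 and 25.59 CPM in mutant pools, without overlap. The log2 fold change was -0.42 (SE 0.119, adjusted p = 0.0445). The call was lost without wild-type pool 2 or any one mutant pool (adjusted p up to 0.249). It was also lost with DESeq2, with limma-voom and with a block for the replicate number (adjusted p = 0.0563).

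The other 5 plexin genes had log2 fold changes from -0.21 (Plxna2, adjusted p = 0.148, which passed without wild-type pool 3) to -0.11 (Plxnb2) and none passed. Of these 5, Plxna1, Plxnb1, Plxnb2 and Plxnd1 were above 10 CPM per kilobase in wild-type pools, and the 3 lower plexins were between 3.21 and 5.95. Plxna1 was at 251 ± 22.7 CPM in wild-type and 227.8 ± 17.2 CPM in mutant pools (SD, n = 3), a log2 fold change of -0.14 with a 95% interval from -0.32 to 0.04. Plxnd1, the receptor of Sema3e in vessels, was at 77.1 ± 14.1 and 70.7 ± 0.753 CPM. With the length and GC correction 5 of the 8 plexins had positive values and the family median moved from -0.18 to 0.004, so the shared sign of the family depended on that setting. The neuropilins differed by less than their spread: Nrp1 by 0.01 (95% interval -0.19 to 0.21) and Nrp2 by -0.10 (-0.27 to 0.06) on the log2 scale.

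Of the 20 semaphorin genes 1 was higher and none was lower, nor lower with DESeq2 or limma-voom; at an unadjusted p under 0.05, 2 were higher and 2 lower. This was Sema3e, a secreted semaphorin that binds Plxnd1 without a neuropilin, on chromosome 5 (14025276 to 14256689). It was at 5.189, 5.509 and 5.684 CPM in wild-type pools and 9.768, 9.365 and 7.042 CPM in mutant pools. The wild-type pools were tight, and the lowest mutant pool still lay above them. The difference was 1.61-fold, a log2 fold change of 0.69 (SE 0.177, adjusted p = 0.0293). The call was lost with DESeq2 and with a block for the replicate number (adjusted p = 0.0561). It was also lost without any one of wild-type pools 1 and 2 and mutant pools 1 and 2 (adjusted p up to 0.186). The log2 fold change stayed between 0.60 and 0.81 in all 6 fits that leave out a pool.

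Sema3a, the neuropilin 1 ligand that repels sensory axons and crest cells, came next among the higher semaphorins and is named after its values were seen. It was at 52.36, 66.4 and 71.57 CPM in wild-type and 79.87, 85.76 and 73.53 CPM in mutant pools. The groups were separate, but wild-type pool 3 and mutant pool 3 nearly touched. The log2 fold change of 0.33 (SE 0.107) had an adjusted p of 0.0816. It passed without wild-type pool 3 (adjusted p = 0.0184), with Y-linked reads as a covariate (0.0103), and after the length and GC correction, at a log2 fold change of 0.42 (adjusted p = 0.00169).

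Sema3d, Sema3a and Sema3e lie next to one another on chromosome 5, in this order, with Sema3d at 12383385 to 12588948 and Sema3a at 13125414 to 13602565. Sema3d had a log2 fold change of 0.23 that did not pass (adjusted p = 0.384). The fourth class 3 gene of that chromosome, Sema3c at 17574281 to 17730268, was at -0.08. Among the rest of the family the values ran from 0.33 for Sema7a, the ligand of Plxnc1, to -0.79 for Sema4a, which has the widest interval (-1.70 to 0.11) and few reads. Sema5a was below the wild-type level in each mutant pool (47.28, 47.45 and 43.47 against 53.38, 54.95 and 54 CPM). Its log2 fold change was -0.23 with an adjusted p of 0.117, and -0.03 (adjusted p = 0.852) after the length and GC correction. Sema4c, the most abundant, was at 65.5 ± 7.93 CPM in wild-type and 59.1 ± 3.33 CPM in mutant pools (SD, n = 3).

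The ephrins held 4 of the 9 genes that differed, in both directions. Of 5 A-type ephrins, which are anchored to the membrane by a lipid, Efna3 and Efna4 were higher and Efna2 was lower, and Efna1 and Efna5 did not pass (Efna5 was called lower without wild-type pool 1). Of 3 B-type ephrins, which cross the membrane, Efnb3 was lower. Efna1, Efna3 and Efna4 are neighbours on the minus strand of chromosome 3, and their start regions are shown because 2 of these 3 neighbours rose together. Each window runs from 250 bases before to 50 bases after the RefSeq start (GRCm38.p6), 5′ to 3′ on the strand of the gene. Capitals mark the GC box, GGGCGG read on either strand.
Efna1, chr3:89280902-89281201: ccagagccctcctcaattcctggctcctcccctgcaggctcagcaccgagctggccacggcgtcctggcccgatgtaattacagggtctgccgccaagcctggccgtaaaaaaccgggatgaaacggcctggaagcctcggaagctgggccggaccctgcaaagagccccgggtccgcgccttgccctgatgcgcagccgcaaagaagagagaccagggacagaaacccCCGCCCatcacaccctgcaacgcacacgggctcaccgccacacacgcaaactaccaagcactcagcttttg
Efna3, chr3:89322890-89323189: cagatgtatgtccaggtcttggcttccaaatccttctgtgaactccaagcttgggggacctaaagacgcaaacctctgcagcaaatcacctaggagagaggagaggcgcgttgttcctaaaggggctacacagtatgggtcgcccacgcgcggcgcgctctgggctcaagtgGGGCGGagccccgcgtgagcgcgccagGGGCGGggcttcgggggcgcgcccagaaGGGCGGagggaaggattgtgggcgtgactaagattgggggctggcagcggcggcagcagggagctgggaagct
Efna4, chr3:89337979-89338278: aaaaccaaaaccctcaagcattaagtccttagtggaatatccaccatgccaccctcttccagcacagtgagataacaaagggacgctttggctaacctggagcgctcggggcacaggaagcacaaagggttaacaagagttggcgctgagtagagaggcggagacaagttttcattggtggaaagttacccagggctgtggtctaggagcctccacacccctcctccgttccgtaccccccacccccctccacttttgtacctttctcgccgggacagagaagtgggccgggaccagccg

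The windows of the 2 genes that rose differed in the letters searched. The Efna3 window held 3 GC boxes, that of Efna1 held 1 and that of Efna4 none. Of 20148 windows of protein-coding genes, 47.7% held a GC box, as did 70.6% of the 68 windows found for 52 of the 60 guidance genes. The E-box letters CANNTG stood 2 times in the Efna3 window and in neither of the others, and 68.7% of all windows held them. The letters ACAAAG, searched on both strands, occurred 2 times in the Efna4 window only of these 3, and in 16.7% of all windows. Motifs were counted independently of one another, and a match is only a match of letters.

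Efna3 had the largest rise of the list. It spans 89313899 to 89322965 on chromosome 3 and was the least abundant ephrin per kilobase, with 27, 15 and 30 reads in wild-type pools and 65, 62 and 37 in mutant pools. Scaled for depth, these were 2.502, 2.119 and 2.584 CPM against 5.336, 6.524 and 5.011 CPM. A wide gap separated the lowest mutant pool from the highest wild-type pool. The difference was 2.31-fold, a log2 fold change of 1.21 (SE 0.22, adjusted p = 0.00412). It passed whichever pool was left out (adjusted p at most 0.032) and under every other setting that was run. Gm15998, annotated on the other strand, overlaps 14.1% of its exonic bases and had 20 reads over all pools.

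Efna4, at 89333390 to 89338028, lies on the upstream side of Efna3 and was among the most abundant guidance genes. Its levels were 27.24, 24.16 and 27.21 CPM in wild-type pools and 33.24, 39.98 and 36.97 CPM in mutant pools. All mutant pools were above all wild-type pools. The difference was 1.39-fold, with a log2 fold change of 0.48 (SE 0.103, adjusted p = 0.012), and it was lost without wild-type pool 2 or mutant pool 2 (adjusted p up to 0.0754).

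Efna1, the third of the neighbours, did not pass. It was at 11.86, 10.6 and 8.698 CPM in wild-type pools and 11.74, 10.84 and 10.97 CPM in mutant pools, which overlap, with a log2 fold change of 0.11 (95% interval -0.20 to 0.43, adjusted p = 0.694). Beyond the cluster, Slc50a1 next to Efna1 was at -0.13 and Adam15 next to Efna4 at 0.03, and neither passed. The 3 ephrin genes lie 6.83 to 6.89 Mb from Sf3b4 itself. Of the other guidance genes on that chromosome, Sema6c (1 Mb away) and Sema4a (7.71 Mb) did not pass, and Unc5c, 45.29 Mb away, was lower.

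Efna2 lies on chromosome 10 (80179482 to 80190010). It was at 29.65, 33.2 and 34.54 CPM in wild-type pools and 24.13, 23.57 and 24.11 CPM in mutant pools. The mutant pools were nearly equal and all below the wild type, with a log2 fold change of -0.44 (SE 0.0993, adjusted p = 0.0159). It passed under the 8 settings run besides leaving out a pool, and was lost without wild-type pool 2 or any one mutant pool, with adjusted p up to 0.0976.

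Efnb3, a ligand that halts axons at the midline of the spinal cord, lies on chromosome 11 (69554092 to 69560205, minus strand). It was at 47.82, 41.39 and 43.32 CPM in wild-type pools and 32.42, 39.35 and 31.55 CPM in mutant pools. Mutant pool 2 came close to the wild type without reaching it. The log2 fold change was -0.36 (SE 0.104, adjusted p = 0.0486). This call was lost with DESeq2, limma-voom, RLE scaling or a block for the replicate number (adjusted p = 0.0734). It was also lost in the pools with Y-linked reads alone (adjusted p = 0.253). Leaving out wild-type pool 1 or 2 or mutant pool 1 or 3 lost it too (adjusted p up to 0.244).

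The more abundant B-type ephrins differed little. Efnb1, an X-linked gene whose loss in humans causes craniofrontonasal syndrome, was at 70.8 ± 2.01 CPM in wild-type and 76.2 ± 4.59 CPM in mutant pools (SD, n = 3), a log2 fold change of 0.10 with a 95% interval from -0.07 to 0.27. Efnb2 was at 200.8 ± 19.1 and 204.1 ± 19.6 CPM, with an interval from -0.16 to 0.21.

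**Figure D4:**
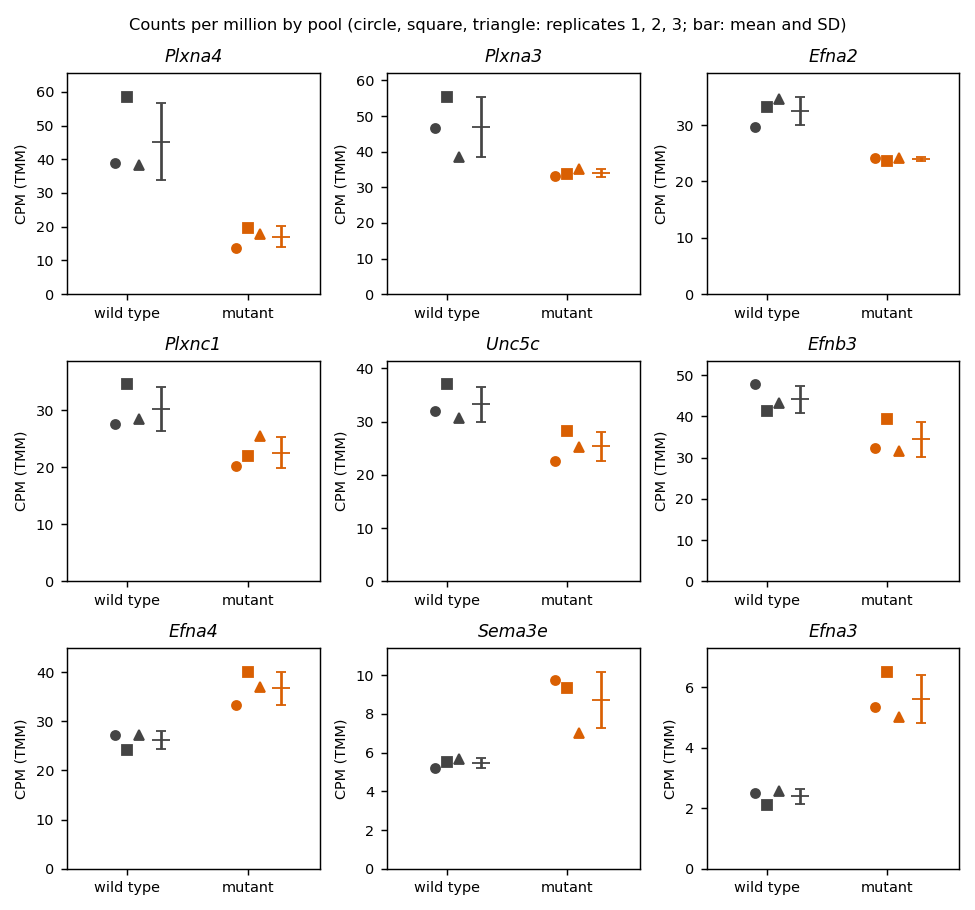
CPM in each pool for the 9 genes that passed; circles, squares and triangles are replicates 1, 2 and 3, and the bars give mean and SD of 3 pools. Plxna4 and Efna3 leave a wide gap between the genotypes, while in Plxna3, Plxnc1, Efnb3 and Unc5c the nearest pools of the genotypes almost meet.

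None of the 10 Eph receptor genes on the list passed, nor did any have an unadjusted p under 0.05 or pass with DESeq2 or limma-voom. Their log2 fold changes ran from -0.26 for Epha8 to 0.32 for Epha2. Epha7, the most abundant A-type receptor on the list, was at 84.24, 83.63 and 83.45 CPM in wild-type pools and 84.14, 89.02 and 71.77 CPM in mutant pools. Its interval from -0.21 to 0.15 bounds the difference closely. The 5 B-type receptors lay between -0.16 for Ephb1 (adjusted p = 0.394) and 0.01 for Ephb6, and Ephb4, a receptor of venous endothelium, was at -0.10 (95% interval -0.25 to 0.05).

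Epha2, a receptor for A-type ephrins, was the one Eph receptor whose call turned on a single pool. It was at 28.08, 19.5 and 16.1 CPM in wild-type pools and 29.47, 23.57 and 26.27 CPM in mutant pools. Wild-type pool 1 lay among the mutants and the other wild-type pools lay below them. With all pools the log2 fold change was 0.32 (SE 0.183, adjusted p = 0.33). Without wild-type pool 1 it was 0.60 and passed (adjusted p = 0.00995). It also passed in the 4 pools with Y-linked reads (0.60, adjusted p = 0.0467), a fit that leaves out wild-type pool 1 as well.

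Slit and Robo genes gave no call with edgeR, DESeq2 or limma-voom, and none had an unadjusted p under 0.05. Slit1, Slit2 and Slit3, the secreted repellents, had log2 fold changes of -0.27, -0.24 and -0.19, with adjusted p from 0.252 to 0.428. Slit2 was at 38.27, 54.81 and 40.56 CPM in wild-type and 36.61, 39.88 and 35.21 CPM in mutant pools, so that the groups overlapped. After the length and GC correction its log2 fold change was 0.03, and 1 of the 3 Slit genes was positive. Robo1, the leading receptor, was below the wild type in each mutant pool (179.1, 184.6 and 172 against 203, 195.9 and 184.9 CPM), with a log2 fold change of -0.12 (95% interval -0.28 to 0.03), and at 0.08 after the correction. Robo3, which lets commissural axons cross the midline, was at 0.17, and Robo4, an endothelial Robo with under 2 CPM in every pool, at -0.60 (95% interval -1.39 to 0.19).

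Netrin 1 gave no call, and of the 3 Unc5 receptors, through which it repels, 1 was lower. Ntn1 was at 92.5 ± 5.79 CPM in wild-type and 94.1 ± 4.61 CPM in mutant pools (SD, n = 3), with an interval from -0.14 to 0.19. Unc5c, a netrin receptor for repulsion, lies on chromosome 3 (141465216 to 141834924). It was at 31.97, 37.01 and 30.75 CPM in wild-type pools and 22.66, 28.2 and 25.19 CPM in mutant pools. The groups did not overlap, and the log2 fold change was -0.39 (SE 0.111, adjusted p = 0.0481). It was lost in DESeq2, limma-voom, RLE scaling and the length and GC correction, when only pools holding Y-linked reads were fitted (adjusted p = 0.126), and without wild-type pool 2 or any one mutant pool (up to 0.272).

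Unc5b, a netrin receptor of blood vessels, was at 58.57, 54.81 and 49.26 CPM in wild-type pools and 65.83, 63.13 and 61.89 CPM in mutant pools. Each mutant pool was above each wild-type pool. The log2 fold change of 0.23 did not pass with all pools (adjusted p = 0.125) and did so without wild-type pool 1 (0.0489) and with the length and GC correction (0.00589). Unc5a was under 3 CPM in all pools, with an interval from -0.87 to 0.74. Unc50 was at 31.2 ± 1.13 and 33.0 ± 0.968 CPM (SD, n = 3).

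A further 77 genes that work with these molecules were examined: 24 other guidance receptors and ligands and 53 proteins of signal transduction. Both lists were chosen with earlier results of these data known, which limits any comparison of their shares with those of all genes. Of the 74 with enough reads, 15 (20.3%) were lower and none was higher, where 3.88% of all genes tested were lower and 2.65% higher; at an unadjusted p under 0.05, 2 were higher and 26 lower. The count of higher genes was 0 with DESeq2 and limma-voom too. Their median log2 fold change was -0.14, and -0.06 after the length and GC correction, under which 9 were lower. Over all genes tested 536 were lower under this correction and 543 without it. Among the 74, the count of lower genes was 4 without mutant pool 1 and 5 without mutant pool 2. It was 7 without wild-type pool 2, 8 without mutant pool 3, and 9 when only pools holding Y-linked reads were fitted. Lower calls over all genes tested were between 123 and 286 in these fits.

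L1cam had the largest fall. It encodes an adhesion molecule of axons that joins Nrp1 in the receptor for Sema3a. It was at 11.49, 11.16 and 10.08 CPM in wild-type pools and 3.53, 3.788 and 4.604 CPM in mutant pools, far apart, with a log2 fold change of -1.47 (SE 0.174, adjusted p = 0.000103). Flrt1, a membrane protein of a family that binds Unc5 receptors and latrophilins, was at 13.44, 12.71 and 13.44 CPM against 4.925, 4.525 and 7.177 CPM, a log2 fold change of -1.28 (SE 0.173, adjusted p = 0.000385). Both passed under every setting that was run. Flrt2 and Flrt3, its relatives, were at 0.17 and 0.07 and did not pass.

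Reln, the secreted ligand that positions neurons, fell by 0.52 on the log2 scale (31.9 ± 1.16 to 22.3 ± 0.409 CPM, SD, n = 3), and its receptor Lrp8 by 0.48. Reln passed whichever pool was left out but not after the length and GC correction, and Lrp8 lost its call in 4 of the 6 fits that leave out a pool (adjusted p up to 0.142). The 3 Srgap genes on the list, whose proteins bind Robo receptors inside the cell, were all lower: Srgap1 fell by 0.64, Srgap3 by 0.64 and Srgap2 by 0.35. Of these Srgap3 passed whichever pool was left out (adjusted p at most 0.037). Srgap1 lost its call without wild-type pool 2, mutant pool 1 or mutant pool 3 (adjusted p up to 0.119). Srgap2 lost its call without wild-type pool 2 or any one mutant pool (up to 0.163), and after the length and GC correction. Srgap1 and Srgap2 also did not pass in the pools with Y-linked reads alone. Of 5 genes of the collapsin response mediator family, which convey semaphorin signals to the cytoskeleton, Dpysl4 fell by 0.48 and Dpysl5 by 0.33, while Crmp1, Dpysl2 and Dpysl3 did not pass. The calls of Dpysl4 and Dpysl5 were lost without mutant pool 1 or mutant pool 2 (adjusted p up to 0.0976 and 0.127).

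The remaining lower genes fell by 0.25 to 0.32 on the log2 scale. Each lost its call in at least 3 of the 6 fits that leave out a pool. They were the glypican Gpc1, the exchange factors Dock1, Farp1, Vav2 and Tiam1, and the kinase Rock2. The GTPases themselves did not pass: Rhoa was at 0.09, Rac1 at 0.15 and Cdc42 at 0.26 (adjusted p = 0.114). Dcc, the attractive netrin receptor, had a log2 fold change of -0.55 that did not pass (adjusted p = 0.0745).

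**Figure D5:**
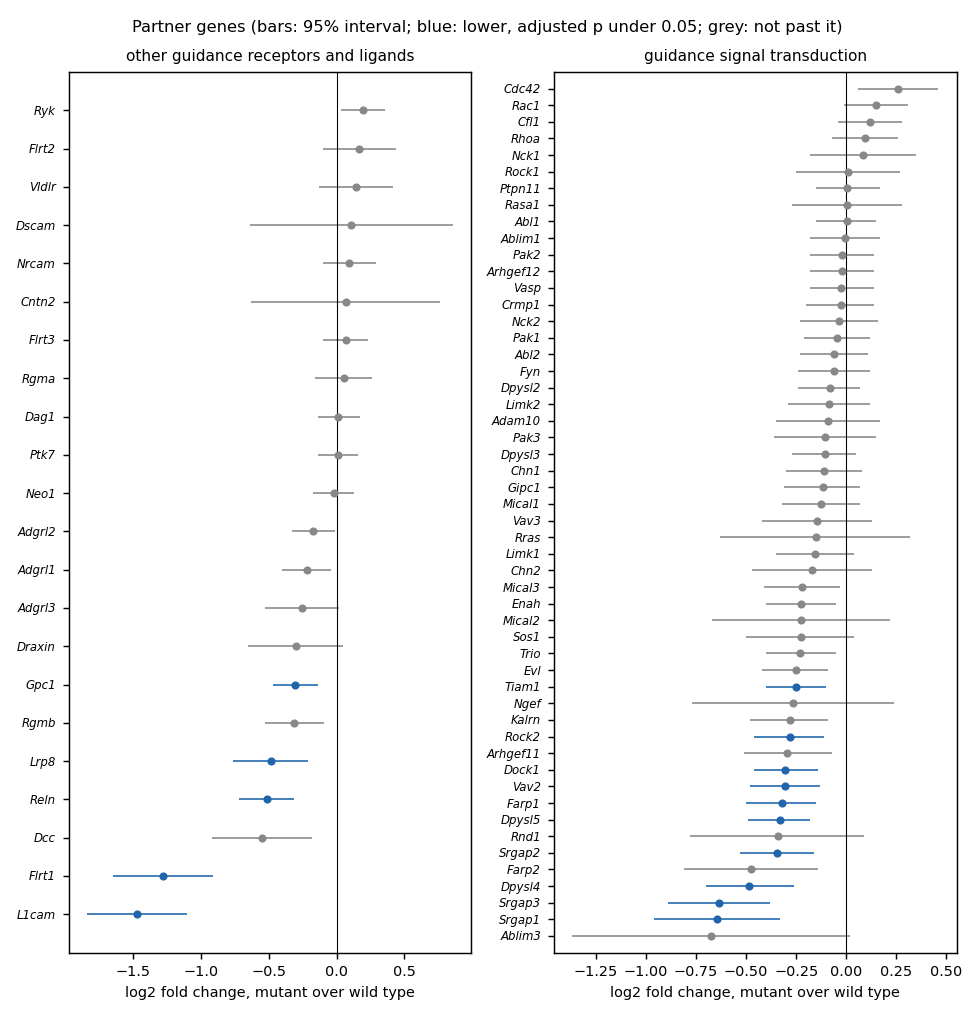
Log2 fold change, mutant over wild type, of the 74 further guidance genes with enough reads, with 95% intervals; receptors and ligands at left, signal transduction at right, blue where lower at an adjusted p under 0.05. L1cam and Flrt1 stand apart at -1.47 and -1.28, and no gene is marked as higher.

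Markers of cell types moved beside these genes. The migrating crest markers were lower in sum in every mutant pool, as were Plxna4, L1cam and Flrt1, and Sox10 had a log2 fold change of -1.15 (adjusted p = 5.68e-05). Head mesoderm markers summed to 228.3 to 241.8 CPM in wild-type and 298.4 to 318.6 CPM in mutant pools (4 of 8 higher), surface ectoderm markers to 473.3 to 515.6 and 600.8 to 648 CPM (3 of 10 higher), and endothelial markers to 256.4 to 286.8 and 311 to 323.5 CPM (1 of 10 higher), beside the rises of Efna3, Efna4 and Sema3e. Neuroepithelial markers summed to 1628 to 1711 CPM in wild-type and 1772 to 1862 CPM in mutant pools, with 2 of 10 (Nes and Hes5) lower and 6 of the 10 log2 fold changes positive. Early neuron markers summed to 118.2 to 137.8 and 128.9 to 133.4 CPM, with 1 of 9 higher and none lower. The 1 was Neurod1, with 0, 2 and 2 reads in wild-type pools and 31, 14 and 10 in mutant pools. At an unadjusted p under 0.05, 3 of the 9 were higher (Neurod1, Stmn2 and Pou4f1) and 3 lower (Tubb3, Elavl3 and Elavl4). Heart markers summed to 35.91 to 104.7 CPM in wild-type and 53.67 to 62.05 CPM in mutant pools, and primitive erythroid markers to 108.8 to 272.5 and 82.17 to 177.1 CPM; none of the 8 tested in either list passed with edgeR, and at an unadjusted p under 0.05 there were 0 and 1. No marker of these lists was at 0 in all pools. The part of any of these in the results was not tested. Between the 2 pools without Y-linked reads the difference was -1.11 for Plxna4 and 0.88 for Efna3 on the log2(CPM + 0.5) scale. The sign of this difference was fixed for each of the 9 genes, because their mutant and wild-type pools did not overlap. It therefore tells nothing about the part of Y-linked reads.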

How the data were processed

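RNA was sequenced from 6 pools of 3 mouse heads each, taken at embryonic day 8.5, with 3 pools per genotype. The authors deposited raw read counts of each gene (whole numbers, no normalization) in 1 file for each pool. Per the submitters' processing notes, reads were placed on mm10. How they were aligned and counted, and whether strand was used, is not given in the sources used; reads of overlapping genes on opposite strands therefore cannot be told apart. Symbols, coordinates, exon lengths and GC content came from GENCODE M21, which matched 54495 of 54532 gene IDs.

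Genes were kept with filterByExpr, scaled by TMM factors and tested by quasi-likelihood in edgeR (robust glmQLFit, glmQLFTest, two-sided), with Benjamini-Hochberg adjustment over the 14008 genes kept and a threshold of 0.05. CPM are counts per 1000000 reads, scaled by TMM. A level per kilobase is the mean CPM divided by the kilobases of annotated exon. The SE was taken as the absolute log2 fold change over the square root of F, and its 95% interval uses the moderated degrees of freedom. The edgeR step was tested on simulated data. Versions were edgeR 4.0.16, DESeq2 1.42.0 and limma 3.58.1, run in R 4.3.3.

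The genes and gene lists were chosen with earlier results of these data known. Named are all genes that passed, in each family the gene with the highest level and the one with the smallest p, genes changed at least 2-fold, the 3 genes on either side of the count threshold, and Sf3b4. Any other gene is named after its values were seen. Alternatives were DESeq2, limma-voom, RLE scaling, no filter on low counts, a block for the replicate number, leaving out each pool in turn, removal of the trend over exon length and GC content (splines with 4 degrees of freedom each), a covariate for Y-linked reads, a fit of only the 4 pools that hold such reads, and a threshold of 0.1.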

Additional observations from a re-analysis of the deposited data

How the results depend on the processing

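Among the 60 guidance genes 3 were higher and 6 lower. The number higher was 2 to 5 under settings that keep all pools (5 with the length and GC correction), and 1 to 4 with 1 pool left out. The number lower was 3 with DESeq2, 2 with limma-voom and 2 with only the pools that hold Y-linked reads, and 1 to 7 with 1 pool left out. Of the 77 partner genes none was higher, with 1 under no filter on low counts, 1 with Y-linked reads as a covariate and 0 to 2 with 1 pool left out. Of these 15 were lower, with 9 after the length and GC correction, 9 with only the pools that hold Y-linked reads and 4 to 19 with 1 pool left out. Over all genes tested, leaving out mutant pool 1 took the calls from 371 higher and 543 lower to 107 and 123, while leaving out wild-type pool 3 raised them to 890 and 920. No call of a named gene changed sign under any of these. The cause of these shifts was not tested. With the replicate block 2 guidance genes were higher and 4 lower, and 10 partner genes were lower. Same-numbered pools had correlations of -0.161, 0.051 and -0.06 between their deviations from the group means. From so few pools these values cannot show whether the numbers pair the pools. With 3 pools per genotype and genes such as Efna3 at 15 to 65 reads, small differences of low genes were not detectable at this depth.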
